A study of Homo sapiens with 2 samples.

Results

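The genes of the contractile apparatus examined here were the 10 genes ACTA2, TAGLN, TAGLN2, MYL9, CNN1, CNN2, CALD1, TPM1, TPM2 and SRF, taken by symbol from the 58698 genes of the deposited table, where each of the 10 symbols occurs once. They were read in 2 libraries of total RNA from MIA PaCa-2, an established human pancreatic cancer cell line. The control library (sgGFP) came from cells with a guide against GFP, a sequence human cells lack, and a genotype given as WT, and the other (sgTPST2) from cells with a guide against TPST2, a tyrosylprotein sulfotransferase of the Golgi, and a genotype given as TPST2 KD. How the guides act, and whether the cells are a clone or a pool, the labels do not say. There was 1 library per condition, so no difference below has a replicate check and no test was made. TPST2 itself stood at 8.46 FPKM in sgGFP (FPKM counts fragments relative to transcript length and library size) and at 1.92 FPKM in sgTPST2.

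Contraction in smooth muscle is driven by myosin II sliding on actin filaments, and phosphorylation of the myosin regulatory light chain sets its activity. Tropomyosin, caldesmon and calponin lie along the actin filament and limit access of myosin, and transgelins bundle the filaments. Many of these genes are targets of serum response factor (SRF), which binds a DNA element named the CArG box together either with the actin-regulated cofactors MRTFA and MRTFB or with the ternary complex factors of the ETS family. In non-muscle and tumour cells, paralogues such as beta- and gamma-actin, TPM3, TPM4, MYL12A, MYL12B, TAGLN2 and CNN2 make up most of the same machinery.

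Because SRF is both a member of the set and the factor that reads the CArG box, the promoter sequences of the members were searched for it. RefSeq promoter windows (GRCh38.p14, 250 bases before to 50 after a start site) were matched for 8 of the 10 genes, all but TAGLN and MYL9, with 16 windows in all. The CArG box reads alike on both strands, so a search of 1 strand covers both. It was found in windows of 2 of these 8 genes, SRF and CNN2. Counted by window and not by gene, 1.29% of the 35116 windows in the table hold it. Counted by gene, 129 of 8833 protein-coding genes at 1 FPKM or more with a window do. CNN1, which is among the 8 genes, did not reach 1 FPKM. The only TPM1 window belongs to a start site at chr15:63048489, inside the gene, which begins at chr15:63042632. Sequence before the beginning of TPM1 was thus not searched. The SRF window holds 2 boxes, which begin 30 and 10 bases before the start site, and 0.0313% of all windows hold 2 or more. The CNN2 window holds 1 box, which begins 89 bases before the start site. In the ACTA2 window nearer to its coding part, no exact box is present, but 2 stretches of 10 bases are 1 base away from one. They begin 121 and 71 bases before the start site. Of all windows, 3.16% hold at least 2 such stretches and 17.9% at least 1. The SRF window with the boxes and some windows of CALD1 hold 1 such stretch each. ACTA2 was picked for display after these counts were seen. The 250 bases before the start site are shown for these 3 genes, with the CArG boxes of SRF (chr6:43171019-43171268, plus strand) and CNN2 (chr19:1026358-1026607, plus strand) and the near matches of ACTA2 (chr10:88952774-88953023, minus strand) in capitals.
SRF: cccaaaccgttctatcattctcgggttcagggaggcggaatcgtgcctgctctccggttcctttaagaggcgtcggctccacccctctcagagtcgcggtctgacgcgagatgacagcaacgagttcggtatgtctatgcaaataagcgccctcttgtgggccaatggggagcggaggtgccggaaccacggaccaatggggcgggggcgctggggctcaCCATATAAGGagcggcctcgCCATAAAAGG
CNN2: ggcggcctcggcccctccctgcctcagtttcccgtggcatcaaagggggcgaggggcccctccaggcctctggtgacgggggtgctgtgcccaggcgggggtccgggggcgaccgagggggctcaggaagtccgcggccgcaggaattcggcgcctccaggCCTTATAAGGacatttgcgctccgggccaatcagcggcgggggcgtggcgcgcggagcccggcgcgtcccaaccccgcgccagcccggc
ACTA2: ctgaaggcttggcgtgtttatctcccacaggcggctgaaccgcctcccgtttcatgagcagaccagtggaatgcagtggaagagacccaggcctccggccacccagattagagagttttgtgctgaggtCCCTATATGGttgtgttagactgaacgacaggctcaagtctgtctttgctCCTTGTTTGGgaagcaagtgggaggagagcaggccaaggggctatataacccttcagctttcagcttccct
A match is a description of these letters and not a measured binding site. Of 8833 protein-coding genes at 1 FPKM or more with a window, 129 have an exact box; 12 of the 129 (9.30%) were at least 1.5-fold higher in sgTPST2 and 16 (12.4%) at least 1.5-fold lower, beside 2.95% and 5.57% of the 8833, and the median difference of the 129 was 0.03 on the log2 scale.

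Levels of the 10 genes spanned a wide range, with TAGLN2 and TPM2 highest and ACTA2, TAGLN and CNN1 lowest in sgGFP. In sgGFP the order from high to low was TAGLN2, TPM2, CNN2, CALD1, TPM1, SRF, MYL9, ACTA2 and TAGLN, with CNN1 listed at 0. TAGLN2, at 213.6 FPKM, was 88.0 times as high as TAGLN, and stood above 96.2% of the 11048 protein-coding genes that reached 1 FPKM in either library. ACTA2, the alpha-actin that defines smooth muscle and activated fibroblasts, stood above 12.0% of them. As the low values of the table step in whole fragments, a kilobase of transcript at 1 FPKM holds about 42.4 fragments in the control and 47.8 in sgTPST2, from which exact Poisson 95% intervals were taken for 1 kb of transcript; they cover counting error only. In sgGFP the intervals of TPM1 and SRF overlapped, as did those of ACTA2 and TAGLN, which does not show that their levels are equal. In sgTPST2 the intervals of TPM2 and TAGLN2 overlapped, as did those of SRF and TPM1, while the interval of MYL9 lay above those of both SRF and TPM1.

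**Figure D1:**
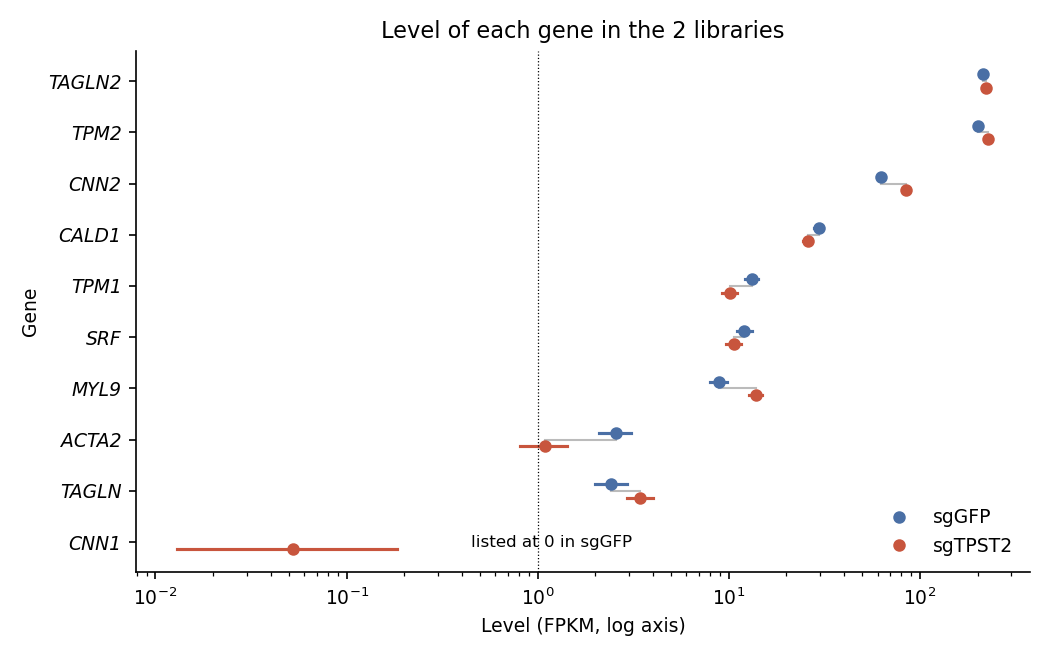
Level of the 10 genes in FPKM (log axis) in sgGFP (blue) and sgTPST2 (red), 1 library each; bars are Poisson 95% intervals for 1 kb of transcript, and the dotted line marks 1 FPKM. The 10 genes keep to the same broad order in both libraries, with MYL9 higher and ACTA2 lower in sgTPST2.

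Across the 9 genes that reached 1 FPKM, 5 were higher and 4 lower in sgTPST2, with differences taken as log2((sgTPST2 + 1)/(sgGFP + 1)). On this scale, which understates changes of genes near 1 FPKM, none of the 9 differed by 2-fold, beside 1.61% of all genes that were 2-fold higher and 2.93% that were 2-fold lower, 4.54% in either direction. ACTA2 was 2.33 times lower by the plain ratio of its FPKM values, and its log2 difference was -1.15 with a pseudocount of 0.1. At 1.5-fold, 1 gene was higher (MYL9) and 1 lower (ACTA2), beside 4.41% of all 13420 genes at 1 FPKM or more that were higher and 6.94% that were lower, 11.3% in either direction. The median difference was 0.06 for the 9 genes and 0.00 for all genes. The median size of the difference, whatever its sign, was 0.35 for the 9 genes and 0.17 for all genes. The 9 differences thus shared no direction. In the authors' deposited table all 9 have q = 0.99965, and 0.517% of the 18574 genes tested there are at or under q = 0.05.

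**Figure D2:**
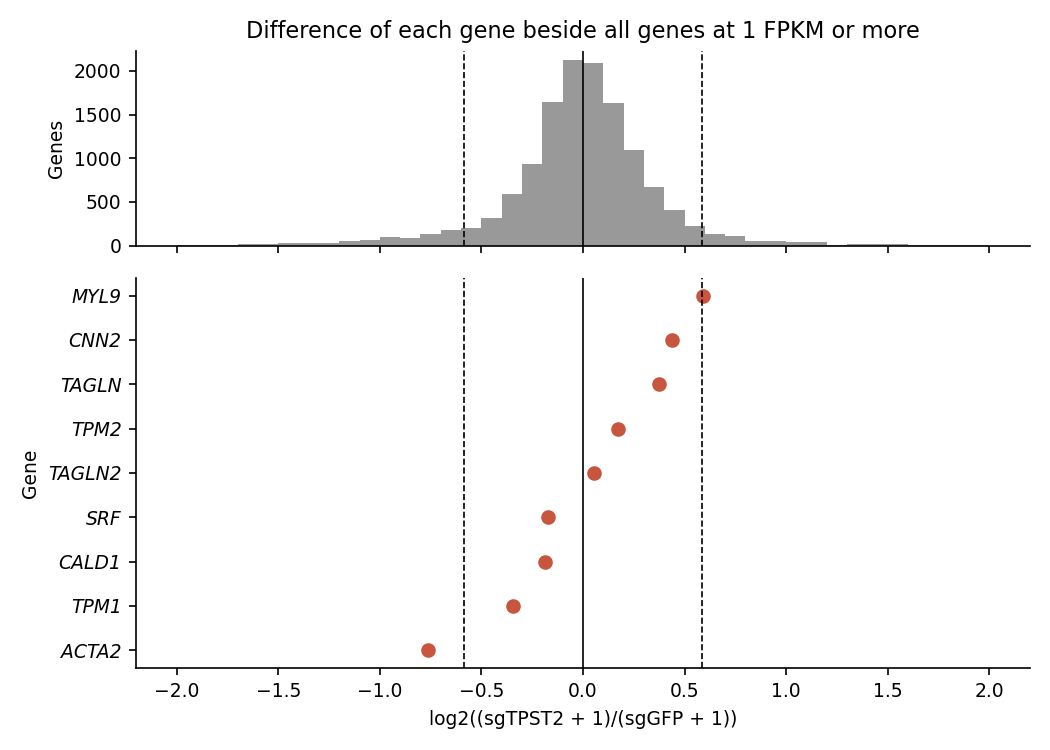
Top, histogram of the log2 difference of all 13420 genes at 1 FPKM or more, drawn between -2 and 2; bottom, the 9 members at 1 FPKM or more, with dashed lines at 1.5-fold. ACTA2 (-0.76) lies beyond the lower line, MYL9 (0.59) lies on the upper line, and the other 7 lie between them.

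The transcription factor SRF stood at 12.1 FPKM in sgGFP and 10.6 FPKM in sgTPST2, a log2 difference of -0.17, and 50.6% of all genes differed by at least as much. The ratio of its FPKM values was 0.879, with a counting interval for 1 kb of transcript of 0.776 to 0.995. As the transcript of SRF is longer than 1 kb, this interval is wider than the counting error of the gene. The gene has 1 annotated transcript of 4202 bases (ENSG00000112658.7, chr6:43171299-43181507) in GENCODE, while the RefSeq windows give it 2 start sites; isoforms were not separated. Its neighbour PTK7, which ends 9579 bases upstream, was at 5.50 and 10.4 FPKM, and CUL9, 667 bases downstream, at 9.45 and 11.4 FPKM.

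ACTA2 (ENSG00000107796.13, chr10:88935074-88991339, minus strand) stood at 2.55 FPKM in sgGFP and 1.09 FPKM in sgTPST2. The control interval of 2.09 to 3.08 FPKM lies above that of sgTPST2, 0.812 to 1.43 FPKM. The log2 difference was -0.76, and 0.429 was the ratio of the FPKM values (counting interval 0.300 to 0.599). In a bulk library, fewer cells with the transcript and less of it per cell cannot be told apart. ACTA2 overlaps the death receptor gene FAS head to head on the opposite strand over 758 bases, and FAS was at 6.67 and 2.24 FPKM. Of all 50-base stretches in annotated ACTA2 transcripts, 26.0% also occur in transcripts of other genes, read on either strand, among them 11.1% in FAS and 13.2% in the antisense gene ACTA2-AS1, at 0.180 and 0.109 FPKM, and the strand setting of the counting is not known from the labels. The part of FAS reads in the ACTA2 values was not tested. STAMBPL1, which overlaps another 40080 bases of ACTA2 on the opposite strand, was at 7.68 and 7.58 FPKM. The 36 other protein-coding genes at 1 FPKM or more within 5 Mb of ACTA2 had a median difference of 0.13. The 437 of chromosome 10 had a median of 0.18. FAS, which is among the 36, had a difference of -1.24. Whether the differences of ACTA2 and FAS are linked was not tested. No 50-base stretch is shared with ACTB, ACTG1, ACTA1, ACTC1 or ACTG2.

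MYL9, the myosin regulatory light chain of smooth muscle (ENSG00000101335.9, chr20:36541484-36551447), stood at 8.87 FPKM in sgGFP and 13.8 FPKM in sgTPST2. The intervals, 7.999 to 9.82 and 12.8 to 15.0 FPKM, do not overlap. The log2 difference was 0.59, just past the 1.5-fold line at 0.58, and the ratio of FPKM values was 1.56 (counting interval 1.37 to 1.78). None of its 50-base stretches occurs in transcripts of another gene, 0 of 2819. The antisense gene DLGAP4-AS1, which spans the locus, was at 0.163 FPKM in sgGFP and is listed at 0 in sgTPST2.

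The non-muscle light chains moved the same way by a smaller step. MYL12A stood at 376 and 463 FPKM and MYL12B at 469 and 567 FPKM, log2 differences of 0.30 and 0.27. The essential light chain MYL6 stood at 894 and 1076 FPKM, a log2 difference of 0.27. MYL12A and MYL12B are far more abundant than MYL9. Of the summed FPKM of these 3 regulatory light chain genes, without MYL6, MYL9 made up 1.04% in sgGFP and 1.33% in sgTPST2. The sum itself went from 854 to 1044 FPKM.

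Calponins inhibit the myosin ATPase and stabilise actin filaments. CNN2, the form of non-muscle cells (ENSG00000064666.14, chr19:1026581-1039068), stood at 62.2 FPKM in sgGFP and 84.7 FPKM in sgTPST2, a log2 difference of 0.44. The ratio of FPKM values was 1.36, with a counting interval of 1.30 to 1.43. AC011558.1, an unconfirmed transcript on the opposite strand over 338 bases near the end of CNN2, was at 30.2 and 56.4 FPKM and shares 7.28% of the 50-base stretches of CNN2; its part in the CNN2 value was not tested. CNN1, the smooth muscle form (ENSG00000130176.7, chr19:11538717-11550323), is listed at 0 in sgGFP and at 0.0526 FPKM in sgTPST2. For its 1527-base transcript the second value stands for about 3.39 fragments, so both values are at the limit of detection and no fold is given. CNN3 was at 3.28 and 2.79 FPKM.

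Among transgelins, TAGLN, also called SM22-alpha (ENSG00000149591.16, chr11:117199321-117204782), stood at 2.43 FPKM in sgGFP and 3.44 FPKM in sgTPST2. The log2 difference was 0.37 and the ratio of FPKM values 1.42 (counting interval 1.10 to 1.83), while the Poisson intervals of the levels, 1.98 to 2.95 and 2.94 to 4.02 FPKM, overlap at their ends. Its last 446 bases overlap PCSK7 on the opposite strand, at 10.9 and 12.1 FPKM, which shares 9.63% of the 50-base stretches of TAGLN; the part of PCSK7 reads was not tested. TAGLN2, the form of epithelial and blood cells (ENSG00000158710.14, chr1:159918107-159925732), stood at 213.6 and 221.9 FPKM, a log2 difference of 0.06. TAGLN was thus 1.12% of the summed transgelin FPKM in sgGFP and 1.53% in sgTPST2. ACTA2 and TAGLN, both classical markers of the contractile state, stood at about the same level in sgGFP and lay on opposite sides of it in sgTPST2.

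Tropomyosins and caldesmon differed by less than 1.5-fold. TPM2 (ENSG00000198467.14, chr9:35681992-35690121), beta-tropomyosin, stood at 200.4 FPKM in sgGFP and 225.7 FPKM in sgTPST2, a log2 difference of 0.17. TPM1 (ENSG00000140416.20, chr15:63042632-63071915), alpha-tropomyosin, was at 13.1 and 10.1 FPKM, a log2 difference of -0.35. The ratio of FPKM values of TPM1 was 0.771 (counting interval 0.681 to 0.873). TPM1 has 34 annotated transcripts and TPM2 12, and the table gives 1 value per gene, so muscle and non-muscle isoforms of them are not separated. TPM3 was at 390.0 and 460.9 FPKM and TPM4 at 109 and 118 FPKM. TPM1 made up 1.84% of the summed tropomyosin FPKM in sgGFP and 1.24% in sgTPST2, and TPM2 28.1% and 27.7%. CALD1, caldesmon (ENSG00000122786.19, chr7:134744252-134970728), stood at 29.5 and 25.8 FPKM, a log2 difference of -0.19.

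**Figure D3:**
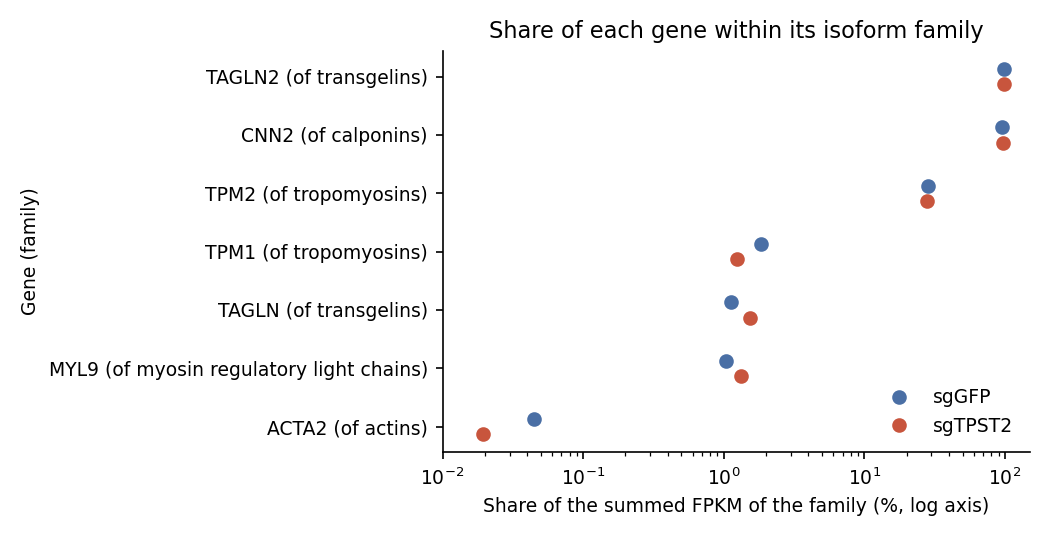
Share of each gene in the summed FPKM of its isoform family (percent, log axis) in sgGFP (blue) and sgTPST2 (red), 1 library each. TAGLN2 and CNN2 hold most of their families, TPM2 between 27.7% and 28.1% of tropomyosins, and ACTA2 0.0446% of actins in sgGFP and 0.0193% in sgTPST2.

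The cytoplasmic actins carried nearly all actin transcripts. ACTB stood at 3184 and 3155 FPKM and ACTG1 at 2541 and 2514 FPKM, and ACTA2 was 0.0446% of the summed FPKM of 6 actin genes in sgGFP and 0.0193% in sgTPST2. The cardiac and skeletal alpha-actins ACTC1 and ACTA1 stayed at or below 0.207 FPKM, and ACTG2 is listed at 0 in both libraries. Family sums in sgTPST2 were 0.990 times the control for actins, 1.04 for transgelins, 1.14 for tropomyosins, 1.22 for myosin regulatory light chains and 1.34 for calponins.

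Among 10 cofactors and partners of SRF, 7 reached 1 FPKM. Of the 7, 1 was lower by at least 1.5-fold and 0 were higher, beside 6.94% and 4.41% of all 13420 genes at that level. The median difference of the 7 was -0.25, which became -0.16 over genes at 5 FPKM or more and -0.05 with no filter on low values. MRTFA stood at 9.50 and 7.81 FPKM and MRTFB at 3.41 and 2.61. The ternary complex factor ELK1 stood at 40.3 and 44.9 FPKM, ELK3 at 6.07 and 4.32, and ELK4 at 5.98 and 5.81. SCAI, an inhibitor of MRTFA, was at 5.78 and 5.49 FPKM. The counting intervals of the ratios of SCAI and ELK4, taken for 1 kb of transcript, include 1. FHL2, a LIM-domain protein that binds SRF and is itself an SRF target, was the lower one, at 22.9 FPKM in sgGFP and 6.94 FPKM in sgTPST2, a log2 difference of -1.59, and in the authors' deposited table it has q = 0.197. Myocardin (MYOCD), the cofactor of the smooth muscle lineage, is listed at 0 in both libraries.

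Targets of SRF were taken in 2 classes. Of 13 immediate early genes, 9 reached 1 FPKM, with a median of -0.12. Of the 9, 3 were lower by at least 1.5-fold and 0 higher, beside 6.94% and 4.41% of all genes. IER2 was at 26.9 and 17.2 FPKM; FOS, at 2.42 and 0.918 FPKM, and ATF3, at 2.47 and 1.12 FPKM, were named after their values were seen. KLF6 was at 37.6 and 47.8 FPKM, MCL1 at 117 and 108 and JUNB at 12.1 and 12.3. Of 18 cytoskeletal and matricellular targets of MRTF and SRF, 17 reached 1 FPKM, with a median of -0.01. Of the 17, 2 were higher by at least 1.5-fold and 1 lower, beside 4.41% and 6.94% of all genes. The lower one was FHL2. The higher ones were TGFB1I1, a focal adhesion LIM protein of smooth muscle, at 6.56 and 11.8 FPKM, and CTGF, a secreted matricellular protein, at 0.583 and 4.77 FPKM, named after its values were seen. The actin oxidase gene MICAL2 was at 9.68 and 6.82 FPKM.

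Of 14 other smooth muscle genes of the contractile programme, 6 reached 1 FPKM, with a median of 0.28. Of the 6, 2 were higher by at least 1.5-fold and 0 lower, beside 4.41% and 6.94% of all genes. CSRP1, a LIM protein of actin bundles, was at 39.5 and 60.4 FPKM and TGFB1I1 is given above. Smoothelin (SMTN) was at 11.2 and 16.5 FPKM and FHL1 at 8.88 and 8.20 FPKM. The defining markers of differentiated smooth muscle were at or near 0: ACTG2 and DES are listed at 0 in both libraries, and MYH11, SYNPO2 and LMOD1 reached at most 0.105 FPKM.

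Of 15 genes of myosin II and its regulators, 13 reached 1 FPKM, with a median of 0.03. The light chain kinase genes MYLK, at 0.379 and 0.706 FPKM, and MYLK2, at 0.218 and 0.423, fell below that level. They were named after their values were seen. Of the 13, 1 was at least 1.5-fold lower and 0 higher, beside 6.94% and 4.41% of all genes. The lower one was PPP1R14A, an inhibitor of myosin phosphatase that is abundant in smooth muscle, at 3.17 and 0.919 FPKM, named after its values were seen. PPP1R14B was at 141 and 123 FPKM, the kinase ROCK1 at 20.4 and 17.6, and the phosphatase subunits PPP1R12B at 4.26 and 5.14 and PPP1R12C at 22.4 and 25.6. Of 18 actin cross-linkers and plaque proteins, 16 reached 1 FPKM (median 0.09). Of the 16, 1 was 1.5-fold higher and 1 lower, beside 4.41% and 6.94% of all genes. LPP stood at 18.9 and 32.1 FPKM, LASP1 at 49.3 and 73.3, filamin A (FLNA) at 129.5 and 178.7 and ACTN4 at 171 and 129. The lower one was FLNC, at 1.18 and 0.247 FPKM, named after its values were seen.

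**Figure D4:**
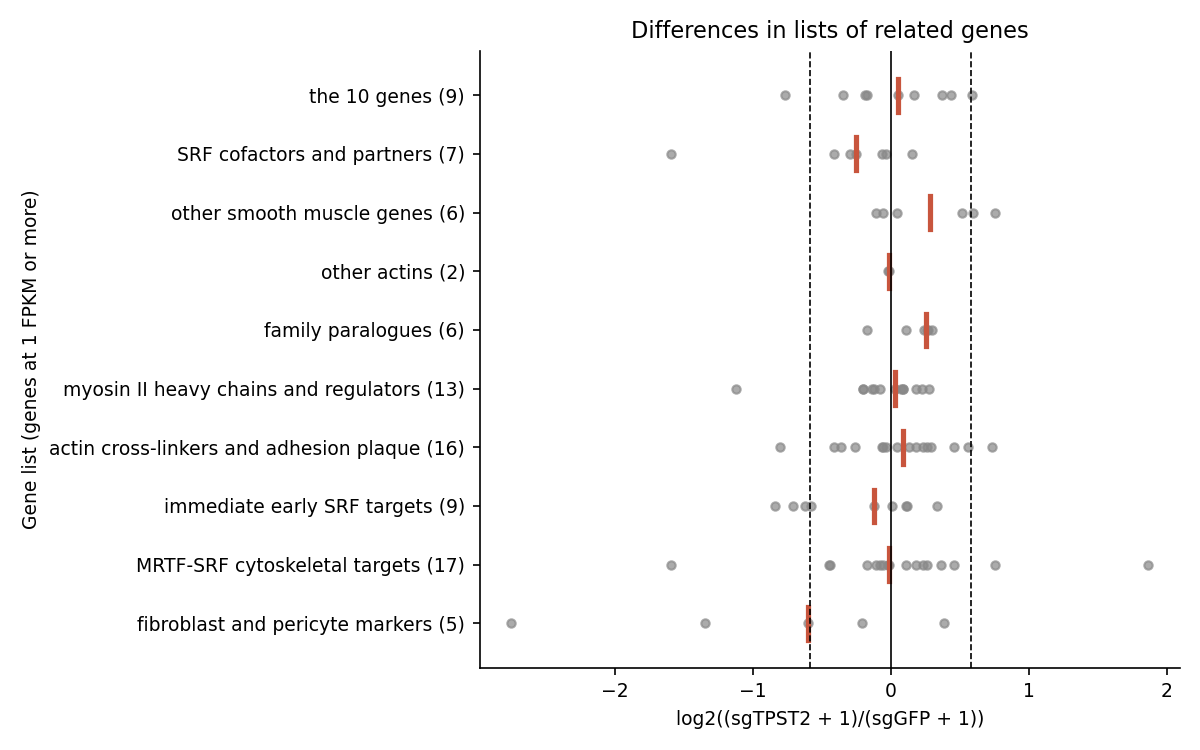
Log2 difference of each gene at 1 FPKM or more (grey points) and the median (red bar) for the 10 genes and 9 lists of related genes, with the number of genes plotted in brackets and dashed lines at 1.5-fold. Most points lie between the lines, and the fibroblast and pericyte list has the lowest median of those drawn, -0.60, over 5 genes.

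Markers of fibroblasts and pericytes, cells in which ACTA2, TAGLN and MYL9 are abundant, were checked beside these values. Of 16 such markers, 5 reached 1 FPKM, with a median of -0.60. Of the 5, 3 were lower by at least 1.5-fold and 0 higher, beside 6.94% and 4.41% of all genes. Among these markers DCN, LUM, FAP and PDPN are listed at 0 in both libraries, as are 31667 of all 58698 genes. PDGFRA and PDGFRB were at or below 0.0103 FPKM. The summed level of the 16 markers was 552 FPKM in sgGFP and 216 in sgTPST2, most of it RGS5, a regulator of G-protein signalling, at 500.3 and 196.1 FPKM, with COL1A2 at 29.05 and 3.47 and COL3A1 at 18.5 and 11.9 FPKM. COL5A1 was at 0.885 and 1.46 FPKM and NOTCH3 at 3.35 and 2.77, and COL1A1, below the filter, at 0.0450 and 0.216 FPKM. The RGS5 value is that of the protein-coding entry, since 2 overlapping genes carry this symbol. The part of these genes in the values of the 10 was not tested. The line itself showed keratins and vimentin together: KRT8 stood at 509.9 and 41.6 FPKM, KRT18 at 583 and 85.3, KRT19 at 189 and 12.8 and VIM at 2661 and 3118, and EPCAM is listed at 0 in both. The 9 contractile genes differed less than these keratins, and none came near the log2 difference of -3.59 of KRT8. The keratins are among the 2.93% of all genes at least 2-fold lower, so they do not stand for a typical gene. Beside all genes, the median size of the difference was 0.35 for the 9 and 0.17 for all.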

How the data were processed

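Column-purified RNA went into a stranded library kit for total RNA, per the labels' protocols. STAR, Cuffdiff and the build hg38 are named per the submitters' processing notes, with no versions, annotation release or strand setting. The deposited table holds 1 value per gene and library, whose header names no unit; they were read as FPKM, the unit Cuffdiff reports, scaled by the authors. The authors' p-value and q-value columns are Cuffdiff's, and the deposited log2 fold change equals log2((sgTPST2 + 1)/(sgGFP + 1)). The test statistic, a score in the deposited table, was not used.

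All 58698 gene identifiers and symbols matched GENCODE release 29 (GRCh38), the source of gene coordinates and transcripts; promoter windows are from RefSeq (GRCh38.p14). A symbol carried by more than 1 gene was taken from the protein-coding entry, then the higher one. Genes entered lists if they reached 1 FPKM in either library. The pseudocount was 1, and 1.5-fold was counted on that scale. The fragment step was fitted to 837 low values in sgGFP and 776 in sgTPST2 of genes with 1 transcript over 1500 bases, of which 91.5% and 93.0% came out whole to within 0.1 fragment; the fit used these same values. Intervals for ratios are exact conditional binomial intervals (Clopper-Pearson), also for 1 kb of transcript, and like the Poisson ones cover counting error only. Both kinds are too wide for a gene with transcripts well over 1 kb. They are too narrow for a gene with shorter ones. Shared sequence was counted as exact stretches of 50 bases. The fitting and counting steps were tested on simulated data.

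The 10 genes and the lists were chosen with earlier results of these data known, and 1 list is not reported here. The genes named are all 10, and in each other list up to 4 with the largest difference among those at 5 FPKM or more. Also named are TPST2, every actin, paralogue and SRF cofactor at 1 FPKM or more, and some genes that overlap or neighbour a member. Of the nearest genes without overlap, only those of SRF are printed, and PTK7 has the largest difference of such genes. Markers at or near 0 come from the marker lists; ACTA1, ACTC1 and MYOCD were named after their values were seen, as were others where the text says so. Computation used Python 3.11.15, numpy 2.4.6, pandas 2.3.3 and scipy 1.17.1.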

Additional observations from a re-analysis of the deposited data

How the results depend on the processing

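No paired analysis was possible because there was 1 library in each group, which also leaves no replicate to take out in turn. The libraries were rescaled to the same upper quartile or the same sum, or centred on the median gene. This moved no difference of the 10 genes beyond its counting error. It moved no list median beyond that of its genes, except that of other actins, which was -0.0011 with the same sum and -0.014 as deposited. The median of MRTF and SRF cytoskeletal targets stayed within its bound but changed sign, from -0.013 as deposited to 0.00013 with the same sum. With a pseudocount of 0.1 the difference of ACTA2 was -1.15 and that of CNN1 0.61, the latter from about 3 fragments. The counts of members past 1.5-fold stayed at 1 higher and 1 lower. Over all 13420 genes the counts went from 592 higher and 931 lower to 928 and 1227. With genes at 5 FPKM or more, which ACTA2 and TAGLN do not reach, 1 member was higher and 0 were lower. Of all 9504 genes at that level, 326 were higher and 524 lower. At 2-fold, 0 members were higher and 0 lower, beside 216 (1.61%) and 393 (2.93%) of the 13420 genes. The list median of other smooth muscle genes was 0.52 over genes at 5 FPKM or more and 0 with no filter on low values, that of fibroblast and pericyte markers -1.35 and 0, and with no filter that of other actins was 0.026 and that of the 7 cell identity markers -0.019, from -3.17 over the 4 at 1 FPKM or more. Of 114 values under alternatives, 102 stayed within these bounds. Depth limits CNN1, and leaves the level of ACTA2 in sgTPST2 resting on about 52 fragments per kb of transcript. The p-values of the deposited table are the authors' own.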
